A study of Mus musculus with 4 samples.

Results

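Oxidative phosphorylation genes were described here by where the muscle transcription factor MyoD was found at them in mouse myotubes. They were the genes with a row in either deposited peak list whose KEGG pathway text names oxidative phosphorylation, 28 of the 7235 genes that the lists name. The respiratory chain passes electrons from NADH (complex I) or succinate (complex II) through complex III to cytochrome c oxidase (complex IV), and ATP synthase (complex V) uses the proton gradient so made. Cytochrome oxidase has subunits with separate forms for heart and skeletal muscle, among them those encoded by Cox6a2, Cox7a1 and Cox8b. The KEGG map also holds the vacuolar proton pump, which acidifies lysosomes and is no part of mitochondria, and soluble pyrophosphatases.

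The cells were primary myoblasts of C57BL/6 mice aged 2 weeks that were differentiated into myotubes for 5 days and then held for 24 hours in differentiation medium with pyruvate or in the same medium without it. MyoD, a bHLH factor that binds the E-box, was immunoprecipitated in 1 library per condition, and the 2 inputs were not analysed here. The list labelled with pyruvate held 11907 peaks and the list labelled without pyruvate 19338. There were no replicates and hence no p-values. The lists carry no read counts, so the absence of a peak from one of them does not show that the site was unbound. The condition of each list rests on the sample titles, since an abbreviation in the deposited names can be read the other way. Of 9 myotube marker genes, 9 had a peak near the start in the list with pyruvate and 4 in the list without, where Ckm and Myh3 had no peak anywhere in their regions. Of 4 fibroblast genes, 0 had a peak in the list with pyruvate and 2 in the list without (Col3a1 and Dpt). The part of these marker differences in the results below was not tested.

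The promoters that bear most closely on the findings are shown first, as RefSeq windows of GRCm38.p6 that run from 250 bases before each gene's start to 50 bases after it. They are Cox8b (chr7:140900397-140900696, minus strand), a muscle form with a peak across its start, and Cox7a1 (chr7:30183921-30184220, plus strand), the muscle form with no row in either list. Ndufa8 (chr2:36049289-36049588, minus strand) and Ndufa4 (chr6:11907401-11907700, minus strand) are shown because each starts close to a gene on the other strand. The peak covered both starts at Ndufa8 and lay just inside the neighbouring gene at Ndufa4. Capitals mark E-boxes, written CANNTG, which read as an E-box on both strands.
Cox8b: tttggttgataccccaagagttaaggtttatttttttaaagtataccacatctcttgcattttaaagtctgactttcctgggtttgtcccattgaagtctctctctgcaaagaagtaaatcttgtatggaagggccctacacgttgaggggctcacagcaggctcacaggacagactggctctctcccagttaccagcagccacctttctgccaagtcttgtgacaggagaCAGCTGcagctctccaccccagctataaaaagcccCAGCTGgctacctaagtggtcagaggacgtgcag
Cox7a1: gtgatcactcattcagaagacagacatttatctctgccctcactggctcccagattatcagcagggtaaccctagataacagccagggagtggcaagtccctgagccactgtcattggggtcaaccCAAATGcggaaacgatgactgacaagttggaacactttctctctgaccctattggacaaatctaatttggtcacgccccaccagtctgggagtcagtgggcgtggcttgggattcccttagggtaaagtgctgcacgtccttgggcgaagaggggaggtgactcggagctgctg
Ndufa8: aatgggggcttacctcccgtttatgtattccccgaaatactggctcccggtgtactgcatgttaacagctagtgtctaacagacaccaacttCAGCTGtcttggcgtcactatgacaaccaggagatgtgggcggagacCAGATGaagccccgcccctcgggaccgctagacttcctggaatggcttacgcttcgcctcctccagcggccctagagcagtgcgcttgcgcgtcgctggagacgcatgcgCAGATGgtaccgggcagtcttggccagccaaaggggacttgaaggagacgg
Ndufa4: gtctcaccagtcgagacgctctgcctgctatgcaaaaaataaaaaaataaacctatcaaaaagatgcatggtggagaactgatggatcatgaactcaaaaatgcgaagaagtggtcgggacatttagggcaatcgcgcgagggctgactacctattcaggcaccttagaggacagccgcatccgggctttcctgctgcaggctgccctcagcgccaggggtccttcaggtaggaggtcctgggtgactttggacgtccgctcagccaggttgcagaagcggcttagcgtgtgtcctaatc
An E-box was present in 72.3% of all 32851 RefSeq promoter windows of this length, so its presence alone is common, and the form CAGCTG was present in 16.3%. The Cox8b window held 2 E-boxes, both CAGCTG, at bases -19 to -14 and 16 to 21 from the start. The Ndufa8 window held 3, of which 1 was CAGCTG, at -158 to -153. Cox7a1 held 1 (CAAATG) and Ndufa4 none in these 300 bases, which do not reach the peak beside Ndufa4 (-652 to -391 from its start with pyruvate), so the window says nothing of the sequence under that peak.

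The oxidative phosphorylation genes were spread almost evenly over the lists, which all genes were not. Of the 28, 9 had a peak only in the list with pyruvate (32.1%, against 9.95% of all genes), 10 only in the list without pyruvate (35.7%, against 35.0%) and 9 in both (32.1%, against 55.1%). Among the 2103 genes with any KEGG annotation these shares were 9.99%, 32.6% and 57.4%. Most of the 28 genes had few peaks, with a median of 1 and a maximum of 11, against a median of 2 for all genes. A gene with 1 peak cannot be in both lists, and 17 of the 28 genes had 1 peak, against 2721 of all 7235. The share in both lists is therefore bounded by the number of peaks per gene. Among genes with 1 peak in all, 8 of 17 oxidative phosphorylation genes had it in the list with pyruvate (47.1%, against 22.9% of the 2721 such genes) and 9 in the list without (52.9%, against 77.1%). The even spread was not seen among wider peaks: with peaks of at least 250 bases alone, 3 genes were only in the list with pyruvate, 3 only in the list without and 8 in both. With the list without pyruvate limited to its widest 11907 peaks, the counts in that order were 9, 5 and 9. The counts under these 2 limits were not set against all genes under the same limits. These are counts of 1 library against 1.

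**Figure D1:**
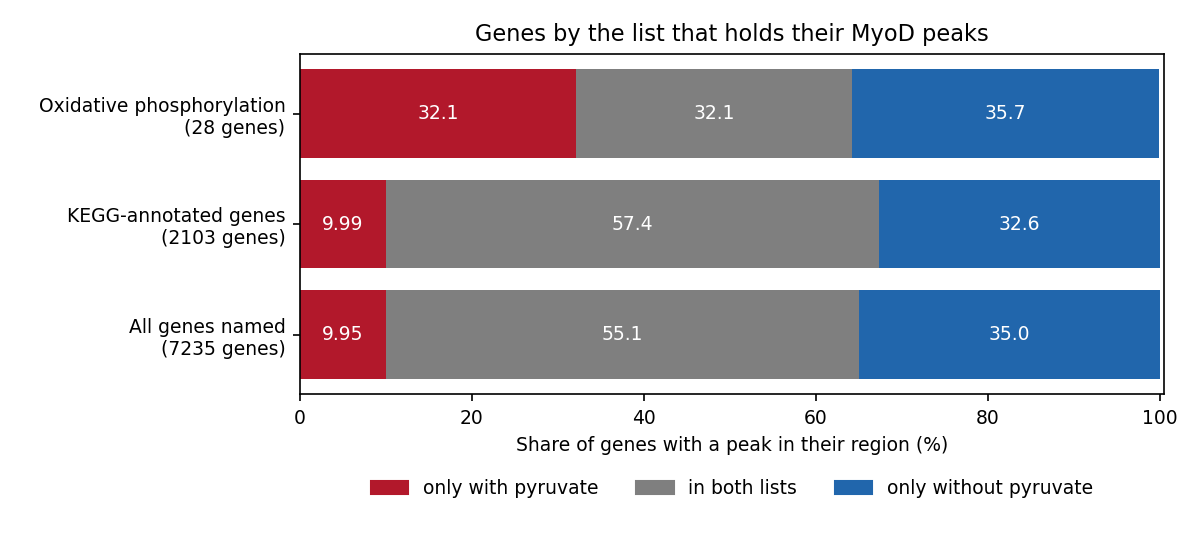
Share of genes (%, horizontal axis) whose peaks were only in the list with pyruvate (red), in both lists (grey) or only in the list without pyruvate (blue), for the 28 oxidative phosphorylation genes, 2103 KEGG-annotated genes and all 7235 genes. The red part is 32.1% in the first bar, 9.99% in the second and 9.95% in the third.

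At these genes, peaks with a partner had a larger median width than those without one. The 28 genes held 27 peaks in the list with pyruvate and 29 in the list without, and 15 of each overlapped a peak of the other list by at least 1 base. That is 55.6% with pyruvate (95% exact binomial interval 35.3 to 74.5) and 51.7% without pyruvate (32.5 to 70.6), against 71.5% and 46.9% of all peaks in gene regions. Both background shares lie inside the intervals, which cover counting error only and treat peaks of the same gene as separate. Median width was 261 bases (range 173 to 479) with pyruvate and 259 bases (149 to 448) without, against 249 and 239 bases for all peaks in gene regions. Partnered peaks had median widths of 290 bases with pyruvate and 294 bases without, and unpartnered ones 233.5 and 197.5 bases. The same split was not made for all peaks in gene regions, so it is not shown to be particular to these genes. In the 15 pairs, 6 peaks were wider with pyruvate (40.0%, the same as the 40.0% of all 5357 pairs in gene regions) and 1 was equal. The difference with minus without pyruvate had a median of -9 bases and ran from -83 to 61.

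**Figure D2:**
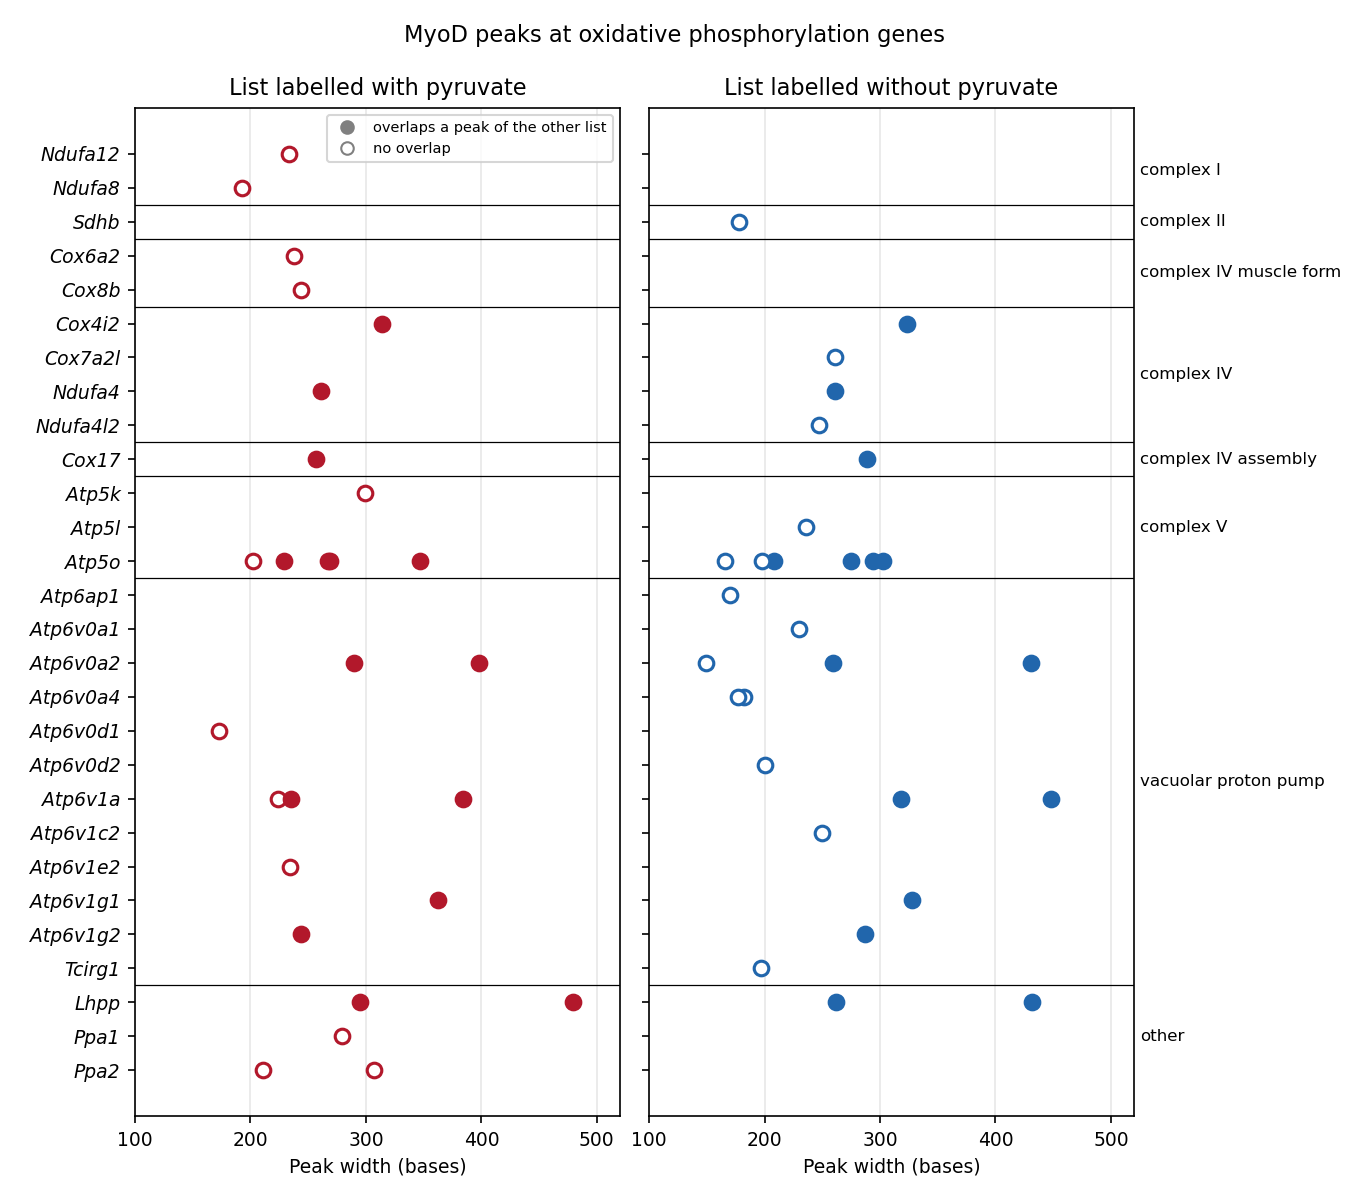
Width in bases (horizontal axis) of every peak at the 28 genes, in the list with pyruvate (left, red) and without pyruvate (right, blue), with genes grouped by complex. Filled points overlap a peak of the other list and open points do not; the rows of complex I and of the muscle forms hold points in the left panel and none in the right.

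Complex I had 2 genes with a row, and both had their peak only in the list with pyruvate, as had 9.95% of all genes. They were 2 of 38 complex I symbols looked up, and of 9 complex III symbols 0 had a row. Over complexes I to V this was 11 of 85 (12.9%), a list that does not hold the paralogue Ndufa4l2, against 24.7% of all RefSeq protein-coding genes. Ndufa8, an accessory subunit, had a peak of 193 bases with pyruvate at chr2:35904863-35905056 of mm9. Only a flank of Ndufa8 is listed, but it touches the region of Morn5, the next gene, which places it upstream of Ndufa8 with the starts of the 2 genes 52 bases apart. The peak covered both starts, from -130 to 63 bases relative to that of Ndufa8, and 18.1% of the peaks in its list were narrower. Counted from each annotation's own start, this span would hold 2 of the 3 E-boxes printed above (both CAGATG) and leave out the CAGCTG. The mm9 and GRCm38.p6 starts were not matched base by base, so which E-boxes lie under the peak is not shown. Ndufa12, another accessory subunit, had a peak of 233 bases with pyruvate at chr10:93675512-93675745, 13812 bases inside the gene. The nearest peak of the list without pyruvate was 6853 bases from that of Ndufa8 and 22271 bases from that of Ndufa12.

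Complex II had 1 gene of 4, Sdhb, which encodes the iron-sulphur subunit of succinate dehydrogenase. No peak was listed for it with pyruvate. Without pyruvate it had a peak of 178 bases at chr4:140516870-140517048, in a flank that could not be placed up- or downstream, and the nearest peak of the list with pyruvate was 2870 bases away.

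Of 3 muscle forms of cytochrome oxidase looked up, 2 had a peak across the start in the list with pyruvate and no peak in the list without. Of all genes, 9.95% had peaks only in the list with pyruvate, and 6.01% had a peak near the start only there. The 9 myotube marker genes leaned the same way, with 9 near the start with pyruvate and 4 without, so this is not shown to be particular to the oxidase forms. Cox6a2, the heart and skeletal muscle form of subunit VIa, had a peak of 238 bases at chr7:135349817-135350055, which spans -175 to 63 bases relative to the start of a gene of 931 bases. Cox8b, the heart and skeletal muscle form of subunit VIII, had a peak of 244 bases at chr7:148086223-148086467, reaching 122 bases to either side of the start. Both E-boxes of the Cox8b window printed above would lie within that span, counted from each annotation's own start. Here too the mm9 and GRCm38.p6 starts were not matched base by base. The nearest peak of the list without pyruvate was 61339 bases from that of Cox6a2 and 39977 bases from that of Cox8b. Neither peak was wide for its list, with 43.5% of widths there below that of Cox6a2 and 46.6% below that of Cox8b. Among genes of this set with a listed body, these were the only peaks across a start. Cox7a1, the third muscle form looked up, had no row. The region listed for the integrin gene Itgad also covers all of Cox6a2, whose peak lay 51927 bases from the Itgad start. The Cox8b peak is also assigned to a flank of Psmd13, a proteasome subunit gene, and that flank covers the whole peak. Psmd13 lies on the plus strand and precedes Cox8b in RefSeq order, which places this flank downstream of Psmd13.

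**Figure D3:**
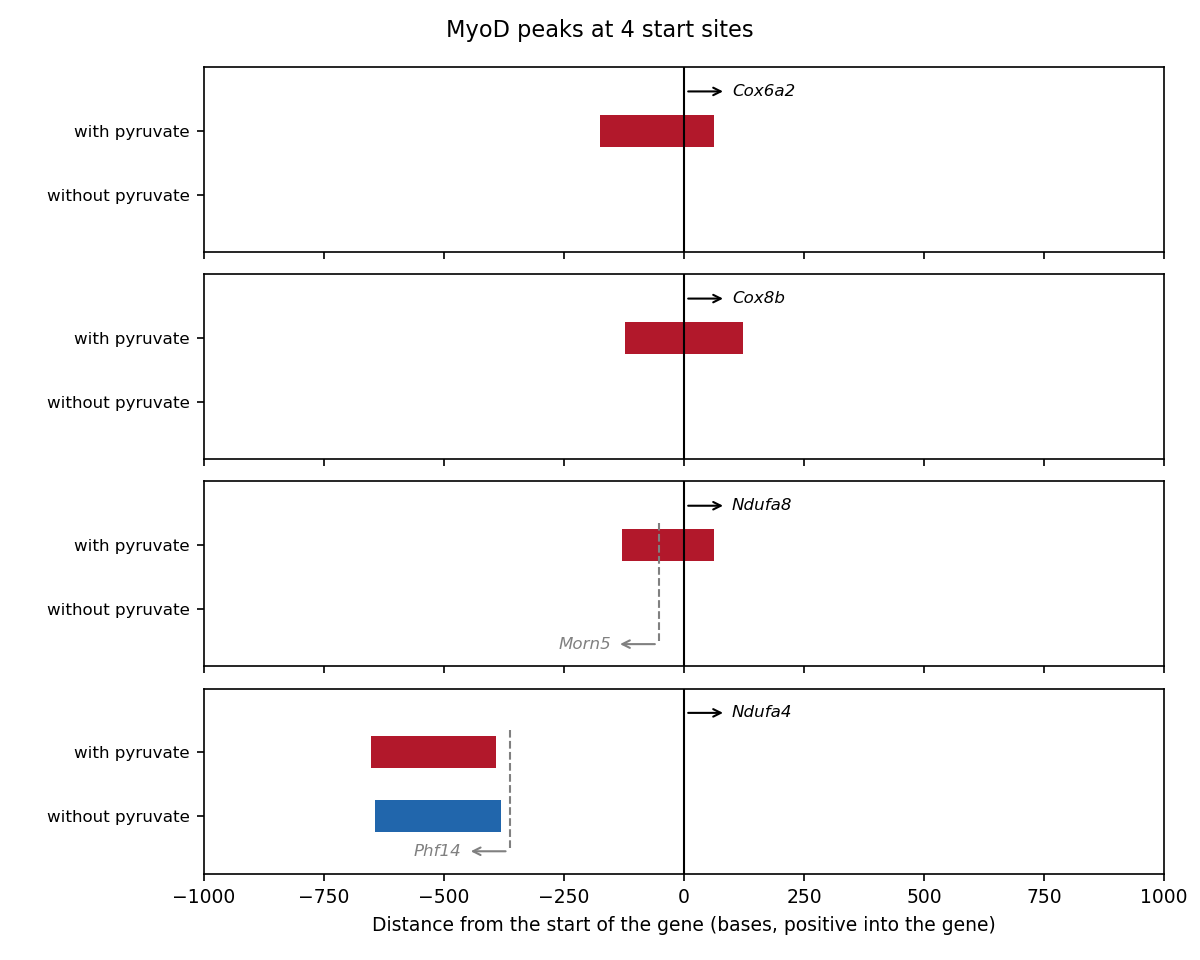
Peaks around the start sites of Cox6a2, Cox8b, Ndufa8 and Ndufa4, as distance from the start in bases (horizontal axis, positive into the gene), with pyruvate (upper bar, red) and without pyruvate (lower bar, blue). Arrows show the direction of each gene, and dashed grey lines the starts of Morn5 and Phf14; Cox6a2, Cox8b and Ndufa8 have a red bar across 0 and no blue bar, and Ndufa4 has both.

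Of the other cytochrome oxidase genes, 2 had peaks in both lists and 2 only in the list without pyruvate. The shares of all genes were 55.1% and 35.0%, and these 4 genes are few to set against them or against the muscle forms. Ndufa4, a subunit once placed in complex I and later in complex IV, had a peak of 261 bases in each list, at chr6:11857837-11858098 with pyruvate and chr6:11857828-11858089 without, which shared 252 bases. Its listed flank touches Phf14, the next gene in the other direction, so it lies upstream of Ndufa4. The peak began 391 bases upstream of the Ndufa4 start with pyruvate and 382 bases upstream without, and 28 and 19 bases inside Phf14, which encodes a PHD finger protein. Cox4i2, a form of subunit IV known mainly from lung, had peaks of 314 bases with pyruvate (chr2:152592081-152592395) and 323 bases without (chr2:152592074-152592397). Its flank meets that of Bcl2l1, a survival gene that follows on the other strand, so these peaks lie downstream, 1308 bases past the end of Cox4i2 with pyruvate and 1301 without. They lay 657 and 655 bases past the end of Bcl2l1. Cox7a2l, a factor of supercomplex assembly, had a peak only without pyruvate, of 261 bases, at chr17:83913757-83914018. Ndufa4l2, a paralogue of Ndufa4 induced by hypoxia, also had one only without pyruvate, of 247 bases, at chr10:126950005-126950252. For both, the side of the flank is not shown. Cox6a2, Cox8b, Cox4i2 and Cox7a2l also share the KEGG entry for cardiac muscle contraction.

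Cox17, the copper chaperone that serves cytochrome oxidase, had a peak in both lists, of 257 bases with pyruvate (chr16:38360435-38360692) and 289 bases without (chr16:38360423-38360712). It lay 13358 and 13346 bases from the Cox17 start, near the far end of the listed region of 15307 bases. The start of Popdc2, a Popeye-domain gene of striated muscle, was closer, at 1603 and 1583 bases downstream.

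Complex V was represented by 3 of 15 genes (20.0%, against 24.7% of all RefSeq protein-coding genes). Of these, 1 had peaks in both lists, 1 only with pyruvate and 1 only without. In that order the shares of all genes were 55.1%, 9.95% and 35.0%, and 3 genes are few to set against them. Atp5o, the OSCP subunit of the stalk, had 5 peaks with pyruvate and 6 without, of which 4 overlapped in each. All of them are also assigned to Itsn1, which encodes an endocytic scaffold and lies inside the 247290 bases listed for Atp5o. The peaks lay between 55714 and 179376 bases from the listed Atp5o start with pyruvate and between 48529 and 179361 without. The widest was 347 bases with pyruvate (chr16:91862179-91862526), and its partner without pyruvate was 294 bases. Peaks without a partner were 202 bases wide with pyruvate and 166 and 198 bases without. Atp5k, subunit e, had a peak only with pyruvate, of 299 bases, in a flank of unknown side (chr5:108865183-108865482). Atp5l, subunit g, had one only without pyruvate, of 236 bases, 5759 bases from its start (chr9:44722830-44723066).

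**Figure D4:**
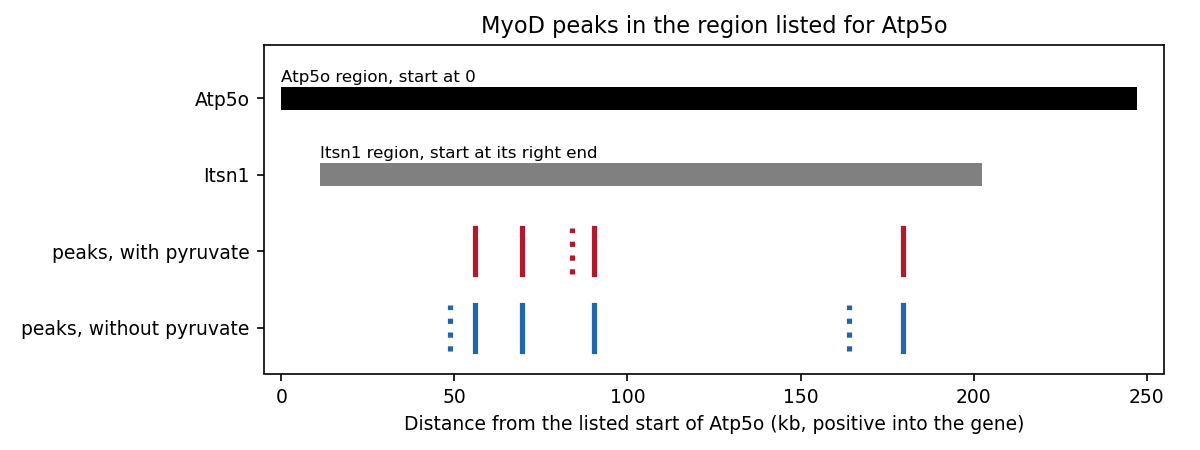
Peaks in the region listed for Atp5o, as distance from its listed start in kb (horizontal axis), with pyruvate (red, above) and without pyruvate (blue, below); bars at the top show the regions of Atp5o and Itsn1. Solid lines are the 4 peaks that overlap between lists and dotted lines those that do not, and every peak falls in both regions.

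The vacuolar proton pump gave the most genes, 12 of the 28, with 2 only in the list with pyruvate, 6 only in the list without and 4 in both. In the same order, the shares of all genes were 9.95%, 35.0% and 55.1%, and 12 genes are few to set against them. Atp6v1a, the catalytic subunit, had overlapping peaks of 235 and 384 bases with pyruvate and of 318 and 448 bases without, and a further peak of 224 bases with pyruvate alone. Atp6v0a2 had overlapping peaks of 290 and 398 bases with pyruvate and of 259 and 431 bases without, and a further one of 149 bases without pyruvate that lay 162 bases from the nearest peak with pyruvate. These peaks lay inside the genes, at 13004 bases or more from the start of Atp6v1a and 7087 or more from that of Atp6v0a2. Atp6v1g1 had a partnered peak within 2 kb of the start of its listed body, 362 bases wide with pyruvate (chr4:63207455-63207817) and 328 without (chr4:63207442-63207770), at 1649 and 1636 bases. Atp6v1g2, the neuronal form of that subunit, had peaks of 244 bases with pyruvate and 287 without, closer to the start of Nfkbil1 on the other strand (588 and 558 bases) than to its own (2720 and 2690 bases).

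The other pump genes had peaks in a single list. Only with pyruvate, Atp6v0d1 had one of 173 bases and Atp6v1e2, a testis form, one of 234 bases. Only without pyruvate, peaks were found at Atp6v0a1 (230 bases), Atp6v0a4, a kidney form (182 and 177 bases), Tcirg1, the osteoclast form of the same subunit (197 bases), Atp6v1c2 (250 bases), Atp6v0d2 (200 bases) and the accessory gene Atp6ap1 (170 bases). By symbol, 13 of 27 pump genes in RefSeq had a row (48.1%, against 24.7% of all RefSeq protein-coding genes), the KEGG members and Atp6ap2.

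The remaining members were phosphatases. Lhpp had overlapping peaks of 479 and 295 bases with pyruvate and 432 and 262 bases without, and the first is the widest at any of the 28 genes. They lay 61721 bases or more from the start of Lhpp, inside the gene, and within the 3009069 bases listed for Fgfr2. Ppa1, the cytosolic pyrophosphatase, had a peak of 279 bases and Ppa2, the mitochondrial one, peaks of 211 and 307 bases, all only in the list with pyruvate and 73966 bases or more from any peak without it.

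Near start sites the counts were small. A peak within 2 kb of a located start, or in a flank of unlocated side, was found only with pyruvate at 5 genes (17.9%, against 6.01% of all genes), namely Atp5k, Atp6v1e2, Cox6a2, Cox8b and Ndufa8. It was found only without pyruvate at 5 (17.9%, against 17.7%), namely Atp6ap1, Atp6v0d2, Cox7a2l, Ndufa4l2 and Sdhb, and in both lists at 3 (10.7%, against 18.7%), namely Atp6v1g1, Cox4i2 and Ndufa4. Leaving out Cox4i2, placed downstream by its neighbour, gave 5, 5 and 2. The flank of Atp6ap1 was not placed in these counts, so Atp6ap1 stayed among those found only without pyruvate. That flank overlaps the next gene in RefSeq order, on the downstream side of Atp6ap1, and the peak lay 27 bases from that gene's start. With starts from listed gene bodies alone, 2 genes had one only with pyruvate, 0 only without and 1 in both, and Ndufa8 and Ndufa4, whose starts were placed by a neighbour, are not in these counts. Of the 28 genes, 18 had a listed gene body, and at these 19 of 22 peaks with pyruvate and 21 of 22 without lay over 2 kb from the start. A body is known only where a peak falls in it or in both flanks. The 10 genes with peaks in flanks alone are therefore left out, which tilts these counts towards distant peaks. The same share was not taken over all genes, so the distance is not shown to be particular to this set.

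Many of the peaks were not particular to an oxidative phosphorylation gene. Of the peaks, 14 of 27 with pyruvate (51.9%, against 13.0% of all peaks in gene regions) and 13 of 29 without (44.8%, against 11.6%) were also assigned to another gene, Atp5o giving 5 and 6 of them. With those peaks left out, 6 genes had a peak only with pyruvate, 9 only without and 3 in both. The genes lost from the first count were Cox6a2, Cox8b and Ndufa8, whose peaks cross the start.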

How the data were processed

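MyoD ChIP libraries and inputs were made from myotubes with and without pyruvate, and groups follow the sample titles. The submitters' processing notes name bcl2fastq 2.19, Bowtie2 2.1.0, MACS2 2.1.1 and mouse build mm9. The sources used here do not give the calling threshold, how inputs entered the calls, or which gene annotation was used. Each deposited file pairs peaks with gene bodies or 2000-base flanks, per the file headers and the values, and the column for fold enrichment holds 0 in each row with a number, so peak width (end minus start as deposited) was the only measure.

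Rows were reduced to distinct peaks, and gene IDs were pooled by symbol. Starts came from listed bodies and strands; distances run from the nearer peak edge. For 3 flanks the side was placed by the gene the flank touches and RefSeq gene order (GRCm38.p6, for order only). Genes were chosen by KEGG text; every one is named, and 1 neighbouring gene is not reported here. Members, lists and comparisons were chosen with earlier results of these data known. E-boxes were searched in RefSeq promoter windows. Alternatives were other overlap rules, start windows, peak widths and list lengths, and narrower gene sets. The overlap code was tested on simulated data. Intervals came from scipy 1.17.1, tables from pandas 2.3.3 with numpy 2.4.6, and plots from matplotlib 3.10.9, all under Python 3.11.15.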

Additional observations from a re-analysis of the deposited data

How the results depend on the processing

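No paired analysis was possible because each condition had 1 ChIP library. Of 48 alternatives, 29 stayed within their bounds (1.5 times for counts of genes, the 95% interval for shares and medians) and 19 moved; the cause was not tested where the setting does not show it. The placing of flank sides and the set of peaks assigned to no other gene were added after seeing the data. Genes with a peak only with pyruvate, only without and in both were 9, 10 and 9. With peaks of at least 250 bases the first 2 counts were 3 and 3, with the list without pyruvate limited to its widest 11907 peaks the second was 5, and in complexes I to V, with Ndufa4l2 counted, they were 5, 4 and 3. With peaks assigned to no other gene, 3 were in both. Genes with a peak near the start, 5, 5 and 3 in the same order, were 2, 0 and 0 within 1 kb of starts from listed bodies and 2, 0 and 1 with such starts and the 2-kb window, both without the neighbour-placed starts of Ndufa8 and Ndufa4. With a window of 10 kb, 5 were in both. With peaks of at least 250 bases the first 2 were 1 and 1, and with the widest 11907 peaks the second was 2. With those widest peaks, 73.7% of peaks without pyruvate overlapped the other list, against 51.7%. In a separate setting, with all peaks but only those that overlap the other list, the median width without pyruvate was 294 bases, against 259. Read depth is unknown, so widths and missing peaks may follow depth.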

Other observations

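Some respiratory genes outside the KEGG entry also had peaks; they were found by symbol after the lists were seen. Ndufaf3, a complex I assembly factor, had peaks near its start in both lists, the widest 493 bases with pyruvate and 340 bases without. Atp5s, coupling factor B of ATP synthase, had one near its start in both, 264 bases with pyruvate and 194 without. The coenzyme Q genes Coq7 (210 bases) and Coq10b (180 bases) had a peak near the start only with pyruvate. The oxidase assembly gene Sco2 (160 bases) had a peak near its start only without pyruvate. Cox18 (162 bases), also of oxidase assembly, and Atpaf1 (269 bases), an assembly factor of ATP synthase, had one only without pyruvate, away from the start. The same search also found Atp5sl and Lyrm4 in both lists, and Lyrm7 and Cox4nb only without pyruvate. Of all genes, 9.95% had peaks only with pyruvate, 35.0% only without and 55.1% in both.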
